A study of Mus musculus with 2 samples.

Results

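The immediate early and NR4A genes described here are *Fos*, *Fosb*, *Jun*, *Junb*, *Egr1*, *Atf3*, *Ier2*, *Nr4a1*, *Nr4a2* and *Nr4a3*. They were taken by their symbols and make up 10 of the 32285 genes in the count matrices. The data are single-nucleus RNA sequencing of the tibialis anterior (TA) muscle of male mice, 6 weeks old, on a C57BL/6 background, in which each captured RNA molecule was tagged with a unique molecular identifier (UMI) and counted per nucleus. M-*Bcl6* KO mice were Myf6-Cre+ Bcl6 fl/fl, so that Cre was driven by the *Myf6* promoter in skeletal muscle. M-*Bcl6* WT mice were their Myf6-Cre+ Bcl6 wt/wt littermates and carried the same Cre transgene. The right and left TA of 2 mice were pooled into 1 library per genotype, so that differences between animals and differences between genotypes cannot be told apart.

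Since each genotype had 1 library, differences have no replicate check and none was tested. Levels are counts per 1000000 UMIs of the same nuclei (CPM) with exact Poisson 95% intervals, and differences are log2 ratios of the KO-labelled library over the WT-labelled library with exact 95% intervals. All of these cover counting error only, and they treat UMIs as independent, also where a few nuclei hold most of them. After the filters, 3674 nuclei with 11425668 UMIs remained in the WT-labelled library and 3945 nuclei with 11451637 UMIs in the KO-labelled library.

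Immediate early genes are transcribed within minutes of a stimulus from factors that are already present in the cell, and their RNAs are short-lived. Many encode transcription factors that act on later genes. In muscle they are known to respond to contraction, adrenergic signals, injury and also to the handling of tissue, and the NR4A genes encode orphan nuclear receptors that are linked to oxidative metabolism and glucose handling in the fibre.

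*Bcl6*, the targeted gene, encodes a transcriptional repressor and was read first because it is the gene that differs between the genotypes. In myonuclei, the WT-labelled library held 1475 *Bcl6* UMIs (167 CPM) and the KO-labelled library held 4832 (502 CPM). The level was therefore higher, not lower, in the KO-labelled library, with a log2 ratio of 1.59 and an interval from 1.503 to 1.672. In non-muscle nuclei the log2 ratio was 0.40, with 346 and 321 UMIs. The floxed alleles lose part of the gene, and counts summed per gene do not show which exons the RNA held, so this count checks neither the deletion nor the labels. All directions below are between the libraries as labelled.

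Nuclei were split into myonuclei, the nuclei of the muscle fibres, and non-muscle classes named by marker genes. Myonuclei made up 2407 nuclei (65.5%) of the WT-labelled library and 3088 (78.3%) of the KO-labelled library, with a median of 3127 and 2706 UMIs. In these nuclei all 10 myonuclear markers were detected in both libraries, led by *Ttn*, which encodes the giant sarcomere protein titin. The non-muscle nuclei numbered 1267 and 857, with a median of 1653 and 1739 UMIs. They held classes resembling fibro-adipogenic progenitors (FAP-like), endothelial cells, muscle stem cells (MuSC-like), pericytes or smooth muscle, macrophages and tenocytes, and in each of these every marker of its list was detected in both libraries.

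The 10 genes summed to 367 CPM in myonuclei of the WT-labelled library and 434 CPM in those of the KO-labelled library, a log2 ratio of 0.24 with an interval from 0.18 to 0.31. This small difference of the sum held differences of opposite sign. *Atf3*, *Egr1*, *Ier2* and *Nr4a3* were at least 2-fold higher in the KO-labelled library, and *Nr4a2* was more than 2-fold lower. *Nr4a1*, which holds most of the members' UMIs in the WT-labelled library, lay just inside that limit at −0.99. Of all genes, 10409 reached 50 UMIs in myonuclei over both libraries. Among these, 4.03% were 2-fold or more higher in the KO-labelled library and 3.85% were 2-fold or more lower, with a median log2 ratio of −0.13. Of the 10 genes, 9 reached 50 UMIs, and *Fosb* did not.

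**Figure D1:**
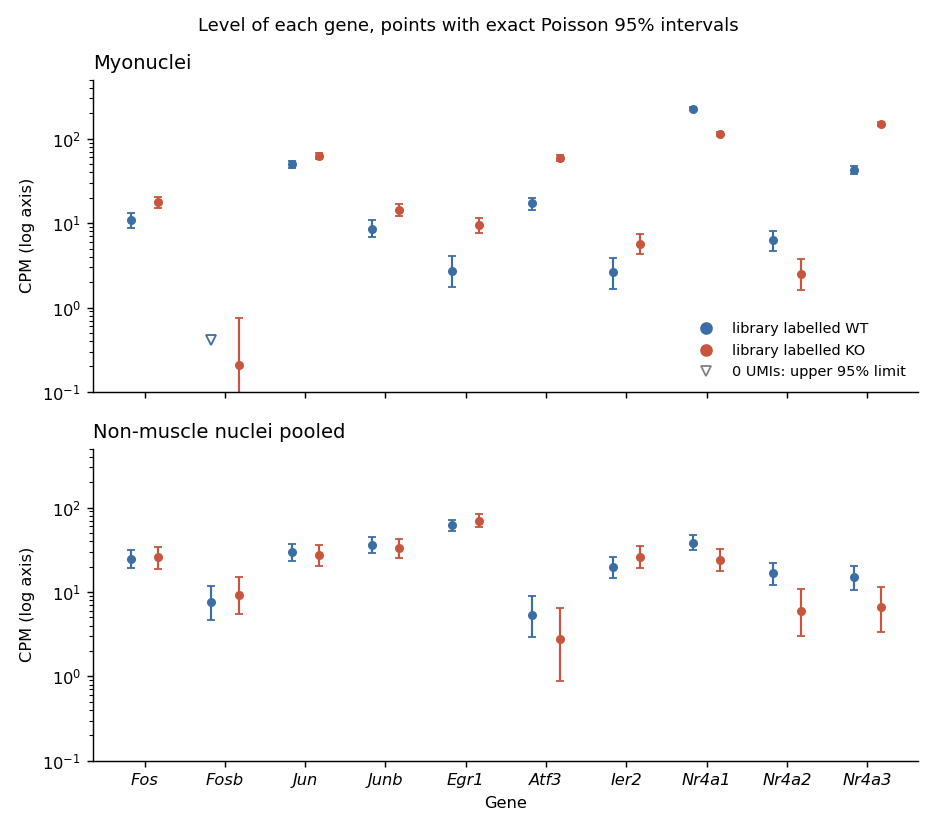
CPM on a log axis of each gene in myonuclei (top) and in non-muscle nuclei pooled (bottom), for the WT-labelled library and the KO-labelled library, with exact Poisson 95% intervals, and an open triangle at the upper limit where no UMI was found. In myonuclei *Nr4a1* was at 226 and 114 CPM and *Nr4a3* at 42.6 and 148 CPM, while in non-muscle nuclei both genes were lower in the KO-labelled library.

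*Nr4a1* (also known as Nur77; chr15:101254269-101274795, plus strand, GRCm38) encodes the NR4A receptor best known for its induction by exercise and adrenergic signals in muscle. Myonuclei held 1997 of its UMIs (226 CPM) in the WT-labelled library and 1093 (114 CPM) in the KO-labelled library. The log2 ratio was −0.99, with an interval from −1.10 to −0.89. After each nucleus was thinned to 1000 UMIs, 18.6% of myonuclei in the WT-labelled library and 10.6% in the KO-labelled library held an *Nr4a1* UMI, against 39.1% and 22.7% without thinning. The lower level thus came with fewer nuclei in which the RNA was found, and it did not rest on a few nuclei, since the 10 nuclei with most *Nr4a1* UMIs held 5.21% and 5.86% of them.

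*Nr4a3* (also known as NOR-1; chr4:48045153-48086447, plus strand) encodes another NR4A receptor that is known to be induced by exercise in muscle. It went the other way, with 376 UMIs (42.6 CPM) in myonuclei of the WT-labelled library and 1428 (148 CPM) in those of the KO-labelled library. The log2 ratio was 1.80, with an interval from 1.64 to 1.97, or 3.48-fold. After thinning, 2.77% and 7.74% of myonuclei held a UMI, against 5.57% and 12.8% without thinning. In MuSC-like nuclei, taken as a low class, 0 of 122 thinned nuclei of the WT-labelled library had a UMI, which allows up to 2.46%, and 1.15% of 87 in the KO-labelled library had one. The median depth of the whole class before thinning was 1255 and 1315 UMIs, and the *Nr4a3* levels of 0 and 5.24 CPM lay below carried levels of 5.10 and 14.03 CPM. *Nr4a3* UMIs were unevenly spread, with 30 in the highest nucleus of the WT-labelled library and 24 in that of the KO-labelled library.

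*Nr4a2* (also known as Nurr1; chr2:57106830-57124003, minus strand) encodes the third NR4A receptor, best known for its part in dopamine neurons. It had 55 UMIs (6.23 CPM) in myonuclei of the WT-labelled library and 24 (2.49 CPM) in those of the KO-labelled library, a log2 ratio of −1.32 with an interval from −2.08 to −0.60. *Nr4a1* and *Nr4a2* were therefore lower and *Nr4a3* higher in the same library. Some nuclei held both RNAs. In the KO-labelled library 47 thinned myonuclei held both *Nr4a1* and *Nr4a3*, where the product of their shares gives 24.6. In the WT-labelled library these values were 19 and 12.3. The product was taken over all myonuclei, but both genes had most of their UMIs in clusters 0 and 5, described further on. These held 33.9% and 28.9% of the *Nr4a1* and 53.6% and 40.5% of the *Nr4a3* UMIs in the KO-labelled library. The excess over the product is therefore not read as a link within nuclei.

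Promoter sequence of *Fos*, *Nr4a1* and *Nr4a3* is shown as examples, because the CRE, the site bound by CREB family factors, is a known inducible element of these genes. RefSeq (GRCm38.p6) promoter sequence was used for 8 of the 10 genes, without *Egr1* and *Ier2*, and the 250 bases before the start were searched on both strands. The CRE core TGACG was found in 7 of the 8, all but *Jun*, and in 17.8% of 32851 promoters of the same length. *Nr4a1*, *Nr4a2* and *Nr4a3* each had 4 matches and *Fos* had 2. The GC box GGGCGG was also in 7 of 8, all but *Junb*, and in 32.7% of all promoters. The full CRE TGACGTCA, which contains the core, was in 0 of 8 and in 1.55% of all promoters, and the AP-1 site TGANTCA was in 0 of 8 and in 6.75%. The NR4A site AAAGGTCA (NBRE) was in 0 of 8 and in 1.34%, and the CArG box was in 0 of 8 and in 1.47%. These are matches of letters in this window and not measured binding. Sites farther than 250 bases from the start, among them any CArG box there, were not searched.

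The printed sequences run 5′ to 3′ on the plus strand, and those of *Fos* and *Nr4a1* end at the base before the RefSeq start, with capitals marking TGACG or its reverse complement CGTCA. They are chr12:85473640-85473889 for *Fos*, chr15:101266596-101266845 for *Nr4a1*, which lies within an intron of a longer annotated transcript, and chr4:48045055-48045152 for *Nr4a3*. For *Nr4a3* only the first 98 of the 250 bases, those farthest from the start, are given, since annotated exons cover bases after them, and they hold 3 of its 4 matches.
Fos: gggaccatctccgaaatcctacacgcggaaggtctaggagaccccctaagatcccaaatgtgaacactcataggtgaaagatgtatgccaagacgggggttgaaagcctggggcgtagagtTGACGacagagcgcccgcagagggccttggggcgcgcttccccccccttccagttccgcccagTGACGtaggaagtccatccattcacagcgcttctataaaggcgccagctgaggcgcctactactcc
Nr4a1: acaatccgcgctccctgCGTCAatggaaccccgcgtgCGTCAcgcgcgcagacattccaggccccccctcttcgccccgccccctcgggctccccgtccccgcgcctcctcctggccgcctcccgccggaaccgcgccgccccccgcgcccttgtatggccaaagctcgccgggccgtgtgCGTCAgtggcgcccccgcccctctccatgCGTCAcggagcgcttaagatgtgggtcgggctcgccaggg
Nr4a3: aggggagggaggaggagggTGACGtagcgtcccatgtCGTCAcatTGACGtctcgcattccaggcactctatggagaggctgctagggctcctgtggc

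*Fos*, *Junb* and *Jun*, whose products pair as Fos-Jun dimers of AP-1, were higher in myonuclei of the KO-labelled library by less than 2-fold, whereas *Fosl2*, an AP-1 gene outside the 10, was lower at −1.51 (73 and 28 UMIs). *Fos* (chr12:85473890-85477273, plus strand) had 96 UMIs (10.9 CPM) in the WT-labelled library and 170 (17.7 CPM) in the KO-labelled library, a log2 ratio of 0.70 with an interval from 0.33 to 1.08. *Junb* (chr8:84974484-84978718, minus strand), whose product is a weaker activator than that of *Jun*, had 76 (8.60 CPM) and 138 UMIs (14.3 CPM), a log2 ratio of 0.74 with an interval from 0.32 to 1.16. *Jun* (chr4:95049034-95052222, minus strand) had 440 (49.8 CPM) and 599 UMIs (62.2 CPM), a log2 ratio of 0.32 with an interval from 0.14 to 0.50, and this difference was nearly absent after thinning at 0.09. *Fosb* (chr7:19302696-19310051, minus strand), a Fos family member tied to lasting stimuli, was at 0 UMIs in myonuclei of the WT-labelled library and 2 in those of the KO-labelled library, so that no ratio is given.

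*Egr1*, a zinc finger factor induced through serum response factor, lay mostly outside the myonuclei, which held 13.04% of its UMIs in the WT-labelled library and 41.6% in the KO-labelled library. Myonuclei held 24 (2.72 CPM) and 91 UMIs (9.45 CPM), a log2 ratio of 1.80 with an interval from 1.14 to 2.51. The UMIs came from 17 and 40 nuclei, and the 10 highest nuclei of the KO-labelled library held 49.5% of its UMIs. *Ier2* (chr8:84661331-84662852, minus strand), a short gene that is among the first to respond to growth factors, had 23 (2.60 CPM) and 55 UMIs (5.71 CPM). Its log2 ratio was 1.13, with an interval from 0.41 to 1.90. After thinning, which leaves fewer UMIs, it was 2.36, the highest of 14 alternatives that began at 1.09.

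*Atf3* (chr1:191170296-191218039, minus strand), a factor induced by cellular stress and injury, had 151 UMIs (17.1 CPM) in myonuclei of the WT-labelled library and 574 (59.6 CPM) in those of the KO-labelled library. The log2 ratio was 1.80, with an interval from 1.54 to 2.07, but it rested on few nuclei. The UMIs came from 24 and 85 nuclei, and the highest nucleus held 48 and 125 of them. The 10 highest nuclei held 90.1% of the *Atf3* UMIs in the WT-labelled library and 65.2% in the KO-labelled library. With the 1% of nuclei with most *Atf3* UMIs left out, 0 *Atf3* UMIs were left in the WT-labelled library and 73 in the KO-labelled library.

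Cluster 2, whose leading genes include *Myh7* and *Myh2*, held 79.5% of the myonuclear *Atf3* UMIs in the WT-labelled library (120 UMIs, 70.3 CPM) and 39.9% in the KO-labelled library (229 UMIs, 107 CPM), a log2 ratio of 0.61 with an interval from 0.28 to 0.94. Most of its nuclei were *Myh1* nuclei, 304 of 471 and 360 of 630, and these held 94 and 142 of the *Atf3* UMIs, whereas its *Myh2* nuclei held 3 and 30. The highest nuclei of the cluster held 48 and 35 *Atf3* UMIs in the WT-labelled library and 70 and 50 in the KO-labelled library. The myotendinous junction, where fibres join the tendon, held 3.97% and 34.8%. The cluster with the markers of that junction had 24 nuclei in the WT-labelled library and 32 in the KO-labelled library, and 6 and 200 *Atf3* UMIs. A single nucleus of the KO-labelled library held 125 of the 200, which came from 10 nuclei. Without this cluster the log2 ratio of *Atf3* in myonuclei was 1.24, and with the 5 large myonuclear clusters weighted equally it was 1.13.

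**Figure D2:**
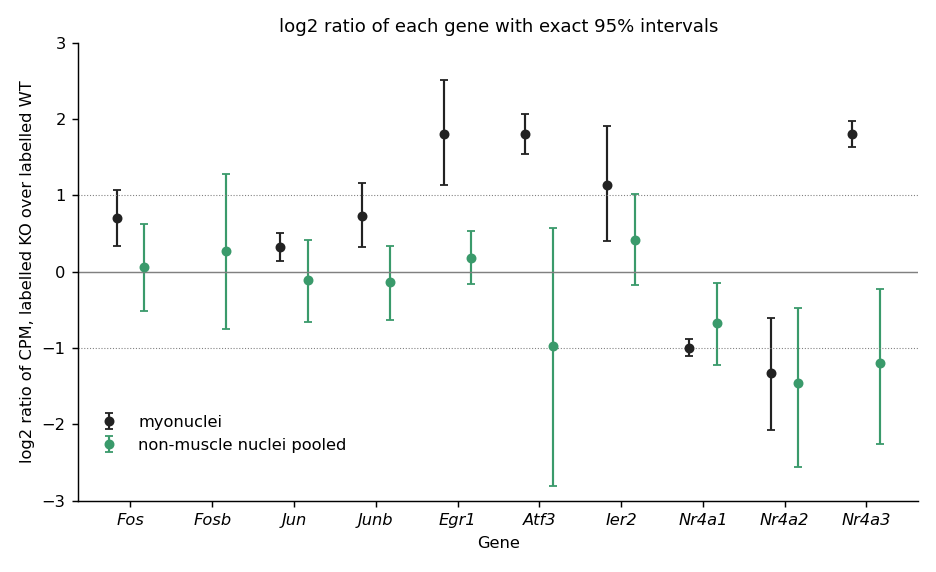
log2 ratio of CPM (KO-labelled library over WT-labelled library) of each gene in myonuclei and in non-muscle nuclei pooled, with exact 95% intervals and dotted lines at 2-fold. In myonuclei *Egr1*, *Atf3* and *Nr4a3* all lay at 1.80, whereas in non-muscle nuclei *Nr4a3* lay at −1.19, and *Fosb* has no myonuclear point because the WT-labelled library held 0 UMIs.

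Scaling moved all of these ratios by one amount. TMM and median-of-ratios factors each raised myonuclear log2 ratios by 0.12. Relative to the median gene, the log2 ratio was −0.87 for *Nr4a1*, 1.93 for *Nr4a3* and 0.45 for *Jun*, and no member changed sign.

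Fibre types were read from the myosin heavy chain gene with most UMIs in a nucleus. *Myh4* marks type IIB, *Myh1* type IIX and *Myh2* type IIA fibres. There were 701 and 612 *Myh4* nuclei in the WT-labelled and KO-labelled libraries, 1155 and 1175 *Myh1* nuclei, and 236 and 482 *Myh2* nuclei. *Myh7*, the slow myosin, led in 2 and 19 nuclei, with 0 and 8 UMIs of the 10 genes, too few to describe. In 313 and 800 nuclei none of these genes led, a difference that stands beside every comparison of fibre types. Summed over the 10 genes, the log2 ratio was −0.01 in *Myh4* nuclei, 0.41 in *Myh1* nuclei and −0.50 in *Myh2* nuclei, and with the 3 types weighted equally it was 0.059.

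In *Myh4* nuclei *Fos* was the member that differed most among those with at least 50 UMIs, with 39 UMIs (15.6 CPM) in the WT-labelled library and 92 (53.2 CPM) in the KO-labelled library. Its log2 ratio was 1.77, with an interval from 1.21 to 2.35. Of the 5 members that reached 50 UMIs there, *Fos* was 2-fold higher and *Nr4a1* 2-fold lower, where 2.67% of 6631 genes were higher and 4.42% lower by that much. These nuclei fell into different clusters, described further on, in each library. Cluster 1 held 316 and 429 of them and cluster 3 held 300 and 133, and within these clusters *Nr4a1* was lower by less than 2-fold, at −0.49 and −0.77. *Nr4a3* in *Myh4* nuclei was at 25.6 CPM (64 UMIs) and 41.6 CPM (72 UMIs), a log2 ratio of 0.70 with an interval from 0.19 to 1.21. *Egr1* had 8 and 31 UMIs (3.20 and 17.9 CPM), and *Ier2* 7 and 30 (2.80 and 17.3 CPM). *Atf3* had 5 and 25 UMIs. All 3 genes were thus more abundant in *Myh4* nuclei of the KO-labelled library, on few UMIs.

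In *Myh1* nuclei *Nr4a3* was at 56.6 CPM on 254 UMIs in the WT-labelled library and at 216 CPM on 870 UMIs in the KO-labelled library, a log2 ratio of 1.94 with an interval from 1.73 to 2.14. *Junb*, *Egr1*, *Atf3* and *Nr4a3* were 2-fold or more higher, and 0 of the 7 members with 50 UMIs were 2-fold lower, where 4.11% of 8496 genes were higher and 3.68% lower. *Nr4a1* was at 227 and 121 CPM, a log2 ratio of −0.91. *Fos* had 27 and 46 UMIs (6.02 and 11.4 CPM), and *Ier2* had 14 and 15, so that the large difference of *Ier2* in *Myh4* nuclei was not seen in *Myh1* nuclei. *Myh1* nuclei too fell into different clusters in each library, with 642 and 479 in cluster 0, 55 and 126 in cluster 1 and 304 and 360 in cluster 2. In these, *Egr1* had 5 and 1, 1 and 24, and 6 and 15 UMIs. *Atf3* was at 2.20 in cluster 0 and 0.43 in cluster 2. The highest *Myh1* nuclei of the WT-labelled library held 48 and 35 of the 116 *Atf3* UMIs.

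In *Myh2* nuclei the early genes had few UMIs. *Fos* had 24 UMIs (27.1 CPM) in the WT-labelled library and 4 (2.39 CPM) in the KO-labelled library, a log2 ratio of −3.50 with an interval from −5.49 to −1.96. That sign was opposite to the one in *Myh4* and *Myh1* nuclei, but 11 of the 24 UMIs came from a single nucleus. *Nr4a3* was at 53.0 CPM (47 UMIs) and 57.4 CPM (96 UMIs), a log2 ratio of 0.11 with an interval from −0.40 to 0.65. *Myh2* nuclei also fell into different clusters in each library. Cluster 0 held 87 and 261 of them, with *Nr4a3* at 108 and 85.8 CPM, and cluster 2 held 137 and 195, with *Nr4a3* at 8.07 and 6.19 CPM on 4 UMIs each. Among the 4 members with 50 UMIs, *Atf3* was 2-fold higher and *Nr4a1* 2-fold lower, where 3.34% of 5383 genes were higher and 3.29% lower. *Nr4a1* was at 121 and 50.9 CPM. It was lower in each of the 3 fibre types, at −1.20 in *Myh4*, −0.91 in *Myh1* and −1.25 in *Myh2* nuclei, and within *Myh4* nuclei it was −0.49 in cluster 1, −0.77 in cluster 3 and −1.25 in cluster 5.

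**Figure D3:**
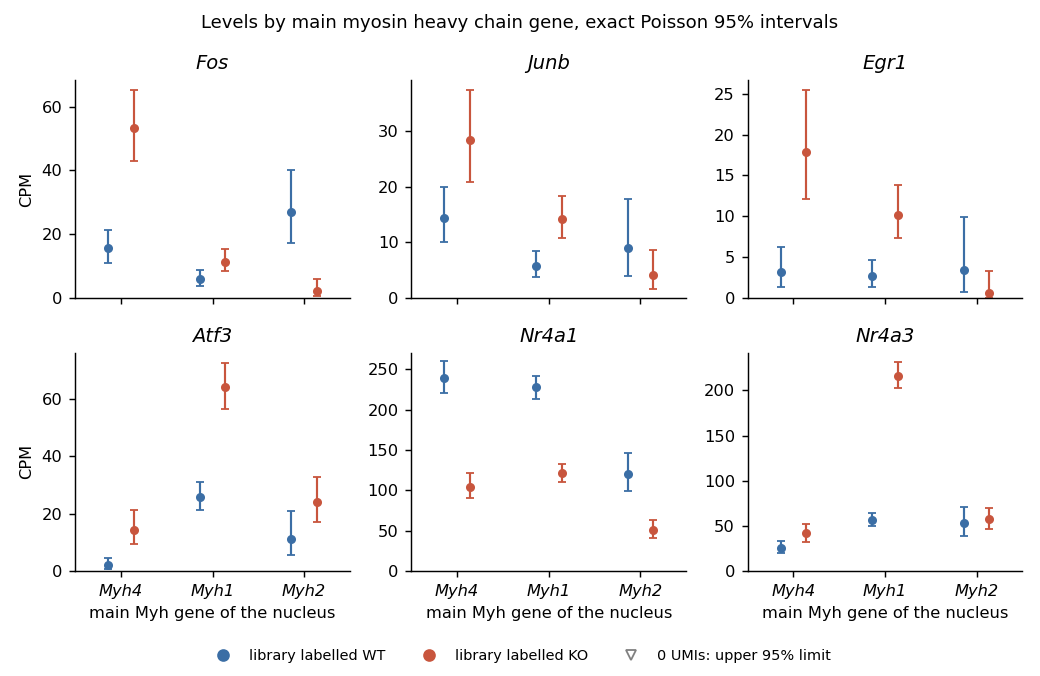
CPM of 6 of the genes in nuclei grouped by their main myosin heavy chain gene (*Myh4*, *Myh1*, *Myh2*), for both libraries, with exact Poisson 95% intervals. *Nr4a1* was lower in the KO-labelled library in all 3 groups, *Nr4a3* stood apart in *Myh1* nuclei at 216 CPM against 56.6 CPM, and *Fos* was higher in *Myh4* nuclei but lower in *Myh2* nuclei of that library.

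Nuclei in which no myosin gene led added to the pooled *Nr4a3* difference, with 11 UMIs (11.5 CPM) in the WT-labelled library and 389 (182 CPM) in the KO-labelled library. Their clusters differed too, with 26 and 101 of them in cluster 0 and 28 and 166 in cluster 5. Within these clusters *Nr4a3* was at 20.8 CPM (2 UMIs) and 279 CPM (81 UMIs) in cluster 0, and at 42.6 CPM (4 UMIs) and 537 CPM (261 UMIs) in cluster 5. With the 3 fibre types weighted equally, and these nuclei left out, the log2 ratio of *Nr4a3* was 1.22. The differences between fibre types were not tested, since each type has 1 library per genotype.

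Clustering split most myonuclei into 5 large clusters, 0, 1, 2, 3 and 5. Genes that differed 2-fold between the libraries were kept out of the clustering, and so were the 10 genes. Cluster 1 was led by *Myh4* and the imprinted transcripts *Mirg* and *Rian*, cluster 2 by *Myh7* and *Myh2*, cluster 0 by *Ppara* and *Ppargc1a*, regulators of fat oxidation and mitochondria, and cluster 3 by *Gpt2* and *Actn3*. *Nr4a1* was lower in the KO-labelled library in all 5, with log2 ratios of −1.17 in cluster 0, −0.64 in cluster 1, −1.02 in cluster 2, −0.89 in cluster 3 and −0.66 in cluster 5. In the cluster with myotendinous junction markers it was at −1.76 on 16 and 5 UMIs. In the one with neuromuscular junction markers it was at 0.34 on 11 and 6, with an interval that held both signs.

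*Nr4a3* was concentrated in clusters 0 and 5, which held 65.4% and 23.7% of its myonuclear UMIs in the WT-labelled library and 53.6% and 40.5% in the KO-labelled library. In cluster 5 it was at 102 CPM in the WT-labelled library and 476 CPM in the KO-labelled library, a log2 ratio of 2.23 with an interval from 1.91 to 2.57. In cluster 0 it was at 80.3 and 256 CPM. In cluster 3 it was at 14.6 and 24.7 CPM, and in clusters 1 and 2 it was below 20 CPM in both libraries. Of the 5 large clusters, cluster 5 also had the highest *Nr4a1* level, at 412 and 260 CPM. It made up 8.64% of myonuclei in the WT-labelled library and 11.9% in the KO-labelled library.

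Within cluster 0 the fibre types differed. In its *Myh1* nuclei *Nr4a3* was at 79.0 CPM (206 UMIs) and 350 CPM (595 UMIs), a log2 ratio of 2.15 with an interval from 1.92 to 2.38. In its *Myh2* nuclei *Nr4a3* was at 108 CPM (37 UMIs) and 85.8 CPM (81 UMIs), a log2 ratio of −0.33 with an interval from −0.91 to 0.27. A single nucleus held 14 of these 37 UMIs and another held 11 of the 81, and without the highest nucleus of each library the levels were 69.1 and 74.6 CPM, so that no direction is read for *Myh2* nuclei. In cluster 5 *Nr4a3* was higher in *Myh4* nuclei, at 2.33 on 36 and 55 UMIs, as well as in *Myh1* nuclei, at 2.24 on 43 and 253 UMIs. In *Myh4* nuclei of cluster 3, in contrast, *Nr4a3* was at 19.8 CPM (23 UMIs) and 6.80 CPM (3 UMIs), but 17 of the 23 UMIs came from 2 nuclei. *Nr4a1* in cluster 0 was lower in *Myh1* nuclei at −0.78 and in *Myh2* nuclei at −1.70.

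*Egr1*, *Ier2* and *Fos*, named here after their values were seen, had most of their myonuclear UMIs in cluster 1 of the KO-labelled library. That cluster made up 25.0% of its myonuclei and held 75.8% of the *Egr1*, 69.1% of the *Ier2* and 62.4% of the *Fos* UMIs. In the WT-labelled library it made up 19.4% of myonuclei and held 25.0%, 13.04% and 26.0% of them. The shares of *Junb* in cluster 1 were 40.8% and 50% and those of *Jun* 20.9% and 29.0% in the WT- and KO-labelled libraries. *Egr1* in cluster 1 had 6 UMIs (4.56 CPM) and 69 (36.4 CPM), a log2 ratio of 2.997 with an interval from 1.80 to 4.49. *Fos* in cluster 1 had 25 UMIs (19.0 CPM) and 106 (55.9 CPM), a log2 ratio of 1.56. Elsewhere it had 13 and 10 UMIs in cluster 0 and 28 and 24 in cluster 2. It had 14 and 25 in cluster 3 and 14 and 2 in cluster 5. *Ier2* had 3 and 38 UMIs in cluster 1, 6 and 4 in cluster 0, 10 and 5 in cluster 2 and 3 and 6 in cluster 3. *Egr1* had 5 and 3 in cluster 0, 10 and 17 in cluster 2 and 3 and 1 in cluster 3. The higher pooled levels of these genes in the KO-labelled library thus came mostly from cluster 1.

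**Figure D4:**
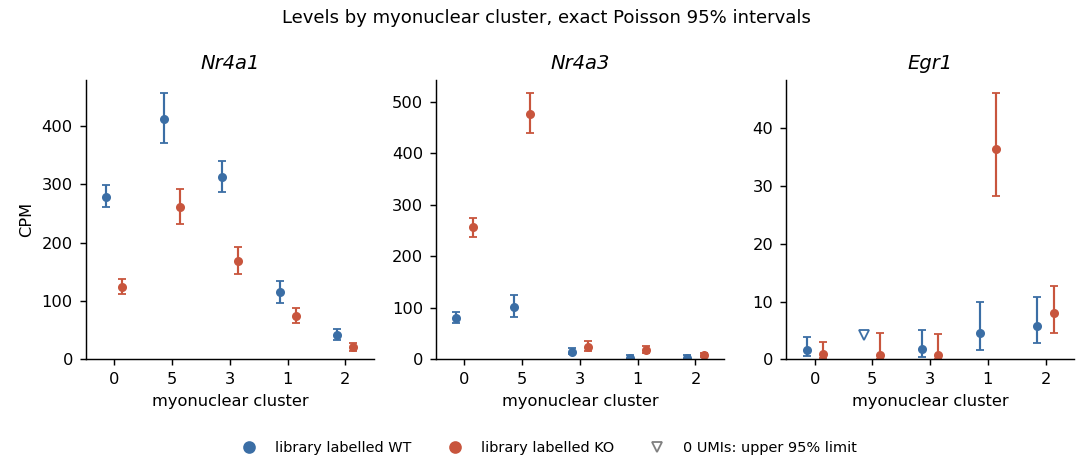
CPM of *Nr4a1*, *Nr4a3* and *Egr1* in the 5 large myonuclear clusters of both libraries, with exact Poisson 95% intervals, each panel on its own scale. *Nr4a1* was lower in the KO-labelled library in every cluster shown, *Nr4a3* was high in clusters 0 and 5 and reached 476 CPM, and *Egr1* reached 36.4 CPM in cluster 1 of the KO-labelled library and stayed under 10 CPM elsewhere.

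The early genes were also found together in single nuclei. Of thinned myonuclei of the KO-labelled library, 6 held both *Junb* and *Egr1*, where the product of their shares gives 0.223, and 6 held both *Fos* and *Egr1*, where it gives 0.418. These products too take no account of clusters, and cluster 1 of that library held 62.4% of the *Fos*, 50% of the *Junb* and 75.8% of the *Egr1* UMIs. Nuclei with at least 2 of *Fos*, *Fosb*, *Jun*, *Junb*, *Egr1* and *Ier2* made up 0.462% of myonuclei in the WT-labelled library (11 of 2381, 95% interval 0.231 to 0.825%) and 1.03% in the KO-labelled library (31 of 3011, 0.701 to 1.46%). In *Myh4* nuclei these shares were 0.719% (0.234 to 1.67%) and 3.37% (2.07 to 5.15%), and in *Myh1* nuclei they were 0.437% and 0.515%. Of the 31 such myonuclei of the KO-labelled library, 20 were *Myh4* nuclei, and of the 11 of the WT-labelled library, 5 were. By cluster, 22 of the 31 and 4 of the 11 lay in cluster 1, or 3.03% of its 726 and 0.879% of its 455 thinned nuclei. Cluster 1 held 429 of 612 *Myh4* nuclei in the KO-labelled library and 316 of 701 in the WT-labelled library. Fibre type and cluster are thus not told apart here.

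In non-muscle nuclei the same 10 genes summed to 255 CPM in the WT-labelled library and 231 CPM in the KO-labelled library, a log2 ratio of −0.14 with an interval from −0.32 to 0.04. Of the 8 members with 50 UMIs, 0 were 2-fold higher, and *Nr4a2* and *Nr4a3* were 2-fold lower, where 0.792% of 8968 genes were higher and 1.28% lower by that much. The median log2 ratio of the 10 genes was −0.13 here, beside −0.06 over all genes, and 0.93 in myonuclei, beside −0.13 over all genes and with *Fosb* ranked highest. The medians over all genes are of genes with at least 50 UMIs. Among the members with as many UMIs, the median was −0.13 here and 0.74 in myonuclei.

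*Egr1* had 160 UMIs (61.7 CPM) and 128 (70.2 CPM) in non-muscle nuclei, a log2 ratio of 0.19 with an interval from −0.16 to 0.53. *Fos* had 64 (24.7 CPM) and 47 UMIs (25.8 CPM), a log2 ratio of 0.06, and *Ier2* was at 0.42 with an interval from −0.18 to 1.02. For *Egr1*, *Fos*, *Jun* at −0.11 and *Junb* at −0.14 the interval held 0. *Fosb*, with 20 and 17 UMIs at 0.27, was nearly all in non-muscle nuclei, and 11 of the 20 came from a single nucleus. As a mean of CPM over nuclei its log2 ratio was 1.36. *Atf3*, with 14 and 5 UMIs there, was nearly all in myonuclei, and its log2 ratio in non-muscle nuclei was −0.98 but 1.19 with no barcode removed as a doublet, so that no direction is read.

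The NR4A genes were lower in non-muscle nuclei of the KO-labelled library. *Nr4a1* had 100 UMIs (38.6 CPM) in the WT-labelled library and 44 (24.1 CPM) in the KO-labelled library, a log2 ratio of −0.68 with an interval from −1.22 to −0.15. *Nr4a2* had 43 and 11 UMIs, at −1.46 with an interval from −2.56 to −0.48. Over 12 alternatives it ranged from −3.55 to −1.04, and without the 1% of nuclei with most of its UMIs, 17 and 0 UMIs were left. *Nr4a3* had 39 UMIs (15.04 CPM) and 12 (6.58 CPM), at −1.19 with an interval from −2.26 to −0.23. *Nr4a1* and *Nr4a2* thus had the same sign in both compartments, and *Nr4a3* had opposite signs. With no barcode removed as a doublet, however, *Nr4a3* in non-muscle nuclei was at 0.30.

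RNA from broken fibres can enter droplets of other nuclei. The myonuclear markers stood in non-muscle nuclei at 4.24% of their myonuclear level in the WT-labelled library and at 5.03% in the KO-labelled library. Carried over at those shares, *Nr4a3* would give 1.81 and 7.47 CPM, against 15.04 and 6.58 CPM measured, so the level in the KO-labelled library was no higher than that of carried RNA. For *Nr4a1* the carried levels would be 9.59 and 5.71 CPM against 38.6 and 24.1 CPM, and for *Atf3* 0.725 and 3.001 CPM against 5.40 and 2.74 CPM. For *Egr1* they would be below 1 CPM in both libraries. In MuSC-like nuclei *Nr4a1* was at 18.1 and 10.5 CPM, no higher than carried levels of 27.1 and 10.7 CPM.

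The non-muscle classes were not alike. Summed over the 10 genes, the log2 ratio was −0.35 (interval −0.67 to −0.04) in FAP-like nuclei, −0.87 (−1.39 to −0.38) in endothelial-like nuclei and −0.79 (−1.51 to −0.11) in macrophage-like nuclei. In MuSC-like nuclei it was −0.32 (−0.76 to 0.12) and in tenocyte-like nuclei −0.21 (−0.96 to 0.53). In pericyte- or smooth muscle-like nuclei it was 1.37 (0.70 to 2.08), on 28 and 58 UMIs. Of these 6 classes, 5 were lower and 1 was higher in the KO-labelled library, and the intervals of the MuSC-like and tenocyte-like classes held both signs. The macrophage-like value rested partly on single nuclei of the WT-labelled library. The highest nucleus for each gene held 10 of 13 *Fos*, 8 of 9 *Nr4a3* and 6 of 13 *Nr4a1* UMIs. In FAP-like nuclei the highest nucleus for each gene held 11 of 16 *Fosb* and 11 of 77 *Egr1* UMIs in the WT-labelled library. In the KO-labelled library it held 3 of 5 and 8 of 37. The FAP-like interval, which ends near 0, treats these UMIs as independent.

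The higher value in pericyte- or smooth muscle-like nuclei came mostly from *Egr1*. It had 0 UMIs in 158 nuclei of the WT-labelled library and 30 UMIs (102 CPM) in 117 nuclei of the KO-labelled library, at least 12.5-fold higher when the former is set to a floor of 3 UMIs. The 30 UMIs came from 10 nuclei. *Ier2* had 4 and 10 UMIs there, while *Nr4a1* had 13 and 5. The 55 and 39 nuclei outside the named classes also held more, with a log2 ratio of 1.62 on 27 and 65 UMIs.

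In endothelial-like nuclei *Nr4a1* had 20 UMIs (50.9 CPM) and 2 (7.33 CPM), a log2 ratio of −2.80 with an interval from −5.94 to −0.76. *Nr4a2* had 18 UMIs (45.8 CPM) and 0, at least 4.17-fold lower with the same floor. *Egr1*, in contrast, was at 73.8 and 69.6 CPM there. In FAP-like nuclei *Egr1* was at 70.2 and 52.0 CPM, *Nr4a1* at 36.5 and 32.3 CPM, and *Nr4a3* had 24 and 4 UMIs. In macrophage-like nuclei *Atf3* had 12 and 2 UMIs, *Junb* 12 and 1 and *Nr4a3* 9 and 0, all lower in the KO-labelled library on few UMIs. Other members were higher there, also on few UMIs, with *Fos* at 72.4 and 79.1 CPM, *Jun* at 27.8 and 35.2 CPM and *Ier2* at 16.7 and 26.4 CPM.

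MuSC-like nuclei had the highest *Fos* and *Egr1* levels of the named classes in the WT-labelled library. *Fos* was at 130 CPM (36 UMIs) and 89.0 CPM (17 UMIs), and *Egr1* at 163 CPM (45 UMIs) and 110 CPM (21 UMIs), with intervals of the log2 ratio that held 0 for both genes. Nuclei with at least 2 of the 6 early genes made up 5.74% of thinned MuSC-like nuclei in the WT-labelled library (7 of 122) and 4.60% in the KO-labelled library (4 of 87). In all non-muscle nuclei the shares were 1.56% and 2.27%. *Egr1* was at 0 UMIs in macrophage-like nuclei of both libraries.

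**Figure D5:**
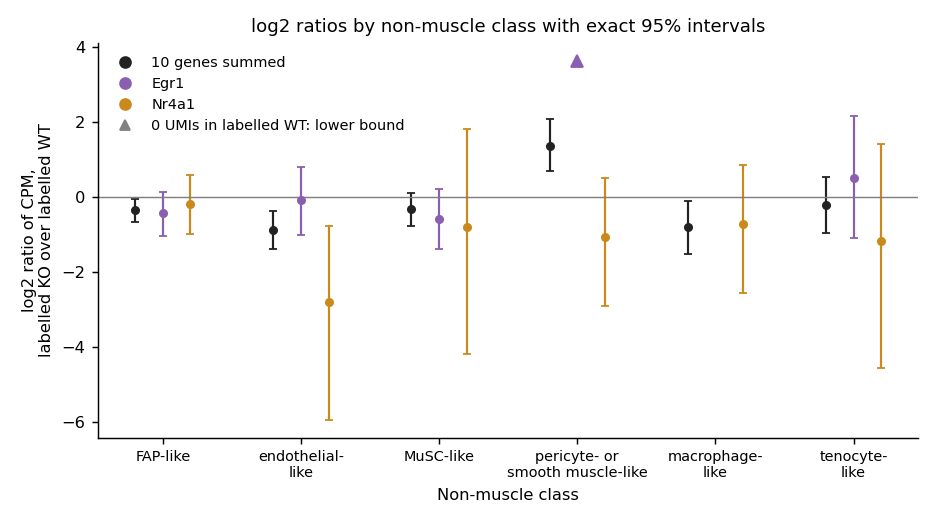
log2 ratio of CPM (KO-labelled library over WT-labelled library) in 6 non-muscle classes for the 10 genes summed, *Egr1* and *Nr4a1*, with exact 95% intervals, and a triangle at the lower bound where the WT-labelled library held 0 UMIs. The sum was at 1.37 in the pericyte- or smooth muscle-like class and below 0 in the other 5, *Nr4a1* was below 0 in all 6 (in MuSC-like nuclei at a level no higher than that of carried RNA), and macrophage-like nuclei have no *Egr1* point because both libraries held 0 UMIs.

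Dissociation of tissue is known to induce early genes and heat shock genes together. Of 14 heat shock genes, 11 had at least 50 UMIs in myonuclei, and 0 of them were 2-fold higher or lower, with a median log2 ratio of −0.23. *Hspa1a*, *Hspa1b* and *Dnajb1* did not reach 50 UMIs in myonuclei or in non-muscle nuclei, so these inducible genes could not be read. Over all genes 4.03% were higher and 3.85% lower, with a median of −0.13, so that a count of 0 among so few genes lies near the background. The highest were *Hspb1* at 0.72, *Hspb8* at 0.22 and *Hspa5* at 0.17, and the lowest were *Dnaja1* at −0.89, *Hspa8* at −0.66 and *Hsph1* at −0.40. In non-muscle nuclei 9 had enough UMIs, with 0 higher and 1 lower by 2-fold and a median of −0.23, beside 0.792%, 1.28% and −0.06 over all genes. *Hspb1* led at 0.16, followed by *Hspa8* and *Hspa5*, both at 0.01, and *Hsph1* at −1.05, *Hsp90aa1* at −0.55 and *Hspd1* at −0.35 were lowest. Whether handling differed between the libraries was not tested.

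Of 38 other immediate early genes, 27 had enough UMIs in myonuclei, with 2 higher and 2 lower by 2-fold and a median of 0.08, beside 4.03% higher, 3.85% lower and a median of −0.13 over all genes. *Klf2*, a Krüppel-like factor known from endothelium, was at 1.29, *Nfkbia*, the inhibitor of NF-kB, at 1.201, and the AP-1 gene *Jund* at 0.99. The lowest was *Sik1*, a kinase that is itself a CREB target and acts back on CREB coactivators, at −2.46 on 314 and 62 UMIs. *Fosl2*, which encodes the AP-1 factor Fra-2, was at −1.51 and *Btg2* at −0.59. Members of the AP-1 family thus lay on both sides, with *Fosl2* lower and *Fos*, *Junb* and *Jund* higher in the KO-labelled library. In non-muscle nuclei 22 had enough UMIs, with 0 higher and 1 lower by 2-fold and a median of −0.13, beside 0.792%, 1.28% and −0.06 over all genes. There *Myc* was at 0.78, *Nfkbia* at 0.72 and *Btg2* at 0.15, and *Klf2* at −1.11, *Dusp6* at −0.97 and *Klf4* at −0.74.

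Upstream regulators, the kinases, CREB and its coactivators, serum response factor and MEF2 factors that switch these genes on or hold them back, numbered 27. In myonuclei 25 had enough UMIs and 0 of these differed by 2-fold, with a median of −0.12. Over all genes 4.03% were higher and 3.85% lower by that much, with a median of −0.13, so that a count of 0 among 25 genes lies near the background. *Rps6ka3* was highest at 0.22, then *Atf1* at 0.21 and *Sik3* at 0.19. *Sik2*, a kinase that holds back CREB coactivators, was lowest at −0.91, then *Mef2c* at −0.63 and *Crtc2*, such a coactivator, at −0.58. In non-muscle nuclei 24 had enough UMIs, 0 differed by 2-fold and the median was −0.05. Over all genes 0.792% were higher and 1.28% lower, with a median of −0.06, so that this count of 0 also lies near the background. *Mapk3* was at 0.44, *Mrtfb* at 0.27 and *Mef2a* at 0.21, and *Crtc2* at −0.54, *Mef2c* at −0.49 and *Crtc1* at −0.31.

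Genes with profiles most like those of the members were found by Spearman correlation of log2(CPM + 10) over 18 points, each a fibre type or class of 1 library, among 8640 genes with at least 200 UMIs. The points share libraries and depth, and the values are descriptions. The mean profile of the members was nearest to those of *Srsf7* at 0.76, *Zc3h4* at 0.75, *Srrm2* at 0.74, *Nasp* at 0.73 and *Gas5* at 0.73. *Nr4a3* was nearest to *Tom1* at 0.95, *Gsdme* at 0.92 and *Arfgef2* at 0.91, and *Nr4a1* to *Pcyt1a* at 0.91, *Gm16062* at 0.90 and *Mettl7a1* at 0.89. *Pcyt1a* encodes the rate-limiting enzyme of phosphatidylcholine synthesis. *Atf3* was nearest to *Gm44386* at 0.92, *Uhrf1bp1l* at 0.87 and *Atf6*, a factor of the unfolded protein response, at 0.85. *Fos* was nearest to *Prdm2* at 0.85, *Plcl2* at 0.85 and *Xpo6* at 0.83, and *Egr1* to *Card10* at 0.84, *Grb10* at 0.83 and *Epb41l5* at 0.82. *Jun* was nearest to *Mypn* at 0.82, *N4bp2l2* at 0.81 and *P2rx6* at 0.81, and *Junb* to *Crebbp*, a coactivator of CREB, at 0.80, *C2cd3* at 0.79 and *Wdsub1* at 0.79.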

How the data were processed

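For each library the authors deposited whole-number UMI counts of every gene in every called barcode, with no normalization. The submitters' processing notes name Cell Ranger 7.0.0, Seurat 5.0.3 and mm10. The methods name a 10x Chromium 3′ kit, whereas the labels name the Multiome kit. The WT-labelled library had 3798 barcodes and 11974138 UMIs and the KO-labelled library had 4096 barcodes and 12026013 UMIs, and 6 barcode sequences were shared. The study's own filters left fewer nuclei.

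Kept nuclei had 200 to 5000 genes and no more than 5% mitochondrial UMIs. Scrublet scores (scanpy 1.11.5) marked doublets, and the highest were removed at 0.8% per 1000 barcodes, 115 and 133 barcodes, since the threshold that Scrublet sets by itself was not used. Libraries were joined by RPCA anchors and clustered at resolution 0.5 in Seurat 5.3.0 (R 4.3.3), without 848 genes, among them the members and all genes that differed 2-fold. Clusters were named from fixed marker lists by a rule that was set after the clusters were seen. Sums, exact intervals, thinning to 1000 UMIs and correlations were computed in Python 3.11.15 with scipy 1.17.1. TMM factors came from edgeR 4.0.16 and served only as an alternative scaling. At this depth, the interval of a myonuclear log2 ratio ran from −1.10 to −0.89 for *Nr4a1* and from 1.14 to 2.51 for *Egr1*.

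The 10 genes, the gene lists and the alternatives were chosen with earlier results of these data known. Named genes were the members, *Bcl6*, the 3 highest and 3 lowest of each list, and the genes of nearest profile (5 for the mean, 3 for each member with at least 200 UMIs). Gene coordinates are from GENCODE M21 (GRCm38). In data simulated for the myonuclear comparison over 11036 genes, 95.9% of unchanged genes fell within their interval. The simulated counts were Poisson, as the intervals assume, with no clustering of UMIs in nuclei and no variation between animals. The simulation thus checks the computation only, not how well the intervals cover the real counts.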

Additional observations from a re-analysis of the deposited data

Results flagged for a closer look

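Some values had the opposite sign to the myonuclei of the same libraries taken as a whole, and none of these differences was tested. In cluster 5, *Fos* was lower in the KO-labelled library at a log2 ratio of −3.28 (14 and 2 UMIs), whereas it was higher in myonuclei as a whole. *Fos* also had fewer UMIs in that library in cluster 0 (13 and 10) and cluster 2 (28 and 24). It had more in cluster 1 (25 and 106) and cluster 3 (14 and 25). *Nr4a3* was lower in non-muscle nuclei pooled at −1.19, in FAP-like nuclei at −1.96 (24 and 4 UMIs, interval −3.95 to −0.42) and in macrophage-like nuclei, where 9 and 0 UMIs bound the log2 ratio at −0.93, whereas it was higher in myonuclei. A single nucleus held 8 of these 9 UMIs, and without it no bound could be given. *Junb* in macrophage-like nuclei was at −2.93 (12 and 1 UMIs, interval −8.34 to −0.17), whereas it was higher in myonuclei.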

How the results depend on the processing

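Of 257 recomputed log2 ratios of single genes, 236 stayed within the counting interval of the reported value, 20 left it with the same sign or from an interval that held 0, and 1 turned: *Nr4a3* in non-muscle nuclei was 0.30 with no barcode removed as a doublet. Over up to 15 alternatives, the myonuclear log2 ratio ranged from −1.09 to −0.84 for *Nr4a1*, from 1.22 to 2.30 for *Nr4a3*, from 1.25 to 1.92 for *Egr1* and from 1.13 to 1.93 for *Atf3*. It ranged from 0.41 to 1.08 for *Fos* and from 0.57 to 1.25 for *Junb*, so that the highest values of both genes passed 2-fold. The sum over the 10 genes in myonuclei was 0.36 with TMM factors, 0.37 with median-of-ratios factors, 0.13 without the 1% of nuclei with most of these UMIs and 0.059 with the 3 fibre types weighted equally. In non-muscle nuclei it was −0.34 with classes weighted equally. *Bcl6* was at 1.70 and 1.71 with the 2 scalings. At a minimum of 200 UMIs, 0.745% of genes in non-muscle nuclei differed by 2-fold in either direction, against 2.07% at 50 UMIs. Thinned to 500 UMIs, 9.56% and 5.28% of myonuclei held an *Nr4a1* UMI and 1.25% and 4.70% an *Nr4a3* UMI. Weighting the 5 large clusters equally and leaving out the myotendinous junction cluster were chosen after seeing the data. Without the 1% of nuclei with most UMIs of a gene, *Egr1*, *Atf3* and *Ier2* gave no myonuclear ratio, since the WT-labelled library was left with 0 UMIs. *Nr4a2* gave none either, since 25 UMIs were left in the WT-labelled library and 0 in the KO-labelled library.

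No paired analysis was possible because each genotype had 1 library, and for the same reason no replicate was left out. Members below about 50 UMIs in a class gave wide intervals, and no value separates genotype from library.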
